A study of Homo sapiens with 16 samples.

Results

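The vacuolar proton pump (V-ATPase) and the lysosomal proteins that depend on its acid were followed through 45 h of HER2 inhibition in MCF10HER2 cells. The gene group had 36 members, chosen by symbol, among 18190 gene symbols on the array: 10 subunits of the V1 sector, 5 of the V0 sector, 2 accessory proteins, 10 lysosomal hydrolases, 6 lysosomal membrane proteins and 3 luminal proteins that are not enzymes. For each gene the detected probe with the highest mean signal was used, where detected means a detection p under 0.05 on 3 or more of the 16 arrays. The members were chosen with earlier results of these data known, so counts and p-values of members are not an independent test. A probe of the right symbol was present for 35 members. No probe carried the symbol CTSA, and the probe listed under its older symbol PPGB was left out of all counts. The probe of ATP6V1C2 was detected on 0 arrays, so 34 members had values that could be fitted. ATP6V1B1 entered the group because its late rise in these same data was already known, so its values are given as a description without a test, and all counts refer to the 33 other fitted members, 15 of the pump and 18 of the lysosome.

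MCF10HER2 cells derive from MCF10A, a human breast epithelial line that is not transformed, and stably over express HER2, a receptor tyrosine kinase. They were grown without serum in medium with EGF, and parallel cultures received 1 µM CP724,714, which blocks the kinase of HER2, in fresh medium. RNA was taken at 0 h, before treatment, and then every 3 h to 45 h, on 1 array per time point with no replicate. Only the culture at 0 h was untreated, so inhibitor, fresh medium and time in culture cannot be told apart.

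Signals are given on the log2 scale after background correction and quantile normalization between arrays. The arrays had between 10363 and 11436 detected probes. The 9 h and 18 h arrays were dimmer, with upper quartiles of the raw signal of 397 and 418 against 553 to 804 on the others. Background signal was 136 to 149 on the 8 arrays from 0 to 21 h and 164 to 174 on the 8 arrays from 24 to 45 h, so lines over the whole course are given with lines within each of these sets. Of 8 breast epithelial markers 5 were detected on all 16 arrays, KRT5, KRT8, KRT17 and KRT18 among them, while KRT14 was detected on 1.

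The V-ATPase is a rotary pump. Its V1 sector, in the cytosol, splits ATP in a head of alternating A and B subunits, and its V0 sector, in the membrane, carries protons through a ring of c subunits past subunit a. The acid it makes activates the hydrolases of the lysosome and drives sorting of their receptors. Most subunits are made in every cell. Subunits B1 (ATP6V1B1) and a4 (ATP6V0A4) are instead known from epithelia that secrete acid, such as the intercalated cells of the kidney, where loss of either causes renal tubular acidosis, while B2 (ATP6V1B2) is the B subunit of most other cells. Many lysosomal genes and V-ATPase genes carry a short element near their start, the CLEAR element, which the transcription factor TFEB binds.

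The promoter of ATP6V1B1 is set here beside those of genes of the group picked for having letters of this element. Sequences are from RefSeq (GRCh38.p14), which gave the 250 bases before and 50 bases after the start of transcription for 27 of the 36 members. ATP6V1A, ATP6V1B2, ATP6V1C1, ATP6V1H, ASAH1, CTSB, HEXA, LAMP2 and PSAP had no entry. The letters searched were CACGTG and the longer TCACGTGA, which contains it, both of which read the same on either strand. The 250 bases upstream of ATP6V1B1 are shown first. Neither motif was found in the window of this gene, which also held for most members with an entry. LAMP1 follows as the member with the most matches, with 5 of its 6 CACGTG in the part shown, and then the last 70 bases before the start of 5 members with matches close to it. Capitals mark CACGTG.
ATP6V1B1, chr2:70935650-70935899, plus strand: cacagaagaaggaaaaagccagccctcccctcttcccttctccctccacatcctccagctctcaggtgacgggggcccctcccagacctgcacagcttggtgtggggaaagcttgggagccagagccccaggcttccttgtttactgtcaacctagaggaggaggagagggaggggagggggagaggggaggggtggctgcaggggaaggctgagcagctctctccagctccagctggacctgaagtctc
LAMP1, chr13:113296989-113297238, plus strand: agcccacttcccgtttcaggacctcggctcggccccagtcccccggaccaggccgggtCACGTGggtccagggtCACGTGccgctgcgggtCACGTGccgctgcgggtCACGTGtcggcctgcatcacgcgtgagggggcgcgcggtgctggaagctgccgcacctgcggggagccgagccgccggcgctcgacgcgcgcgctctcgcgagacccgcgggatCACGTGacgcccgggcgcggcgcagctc
ATP6V1G1, chr9:114587699-114587768, plus strand: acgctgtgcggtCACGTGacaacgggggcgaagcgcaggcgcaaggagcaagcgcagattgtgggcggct
ATP6V0D1, chr16:67481158-67481227, minus strand: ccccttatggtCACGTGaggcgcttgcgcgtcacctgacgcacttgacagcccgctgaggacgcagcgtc
ATP6V0B, chr1:43974890-43974959, plus strand: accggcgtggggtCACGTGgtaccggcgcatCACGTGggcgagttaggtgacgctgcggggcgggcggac
MCOLN1, chr19:7522554-7522623, plus strand: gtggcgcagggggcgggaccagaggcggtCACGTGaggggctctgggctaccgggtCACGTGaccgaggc
CTSA, chr20:45891265-45891334, plus strand: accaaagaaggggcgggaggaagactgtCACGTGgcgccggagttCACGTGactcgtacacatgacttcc

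CACGTG was found in 9 of the 27 members with an entry (33.3%), which are ATP6V1G1, ATP6V0B, ATP6V0D1, CTSA, CTSD, NEU1, LAMP1, CD63 and MCOLN1. It was found in 8.77% of all 27305 genes of the promoter table and in 10.9% of its 15842 protein-coding genes, counting a gene if any of its listed starts had a match. The longer TCACGTGA was found in 5 members (18.5%), ATP6V1G1, ATP6V0D1, CTSA, LAMP1 and MCOLN1, against 1.18% of all genes and 1.65% of the protein-coding ones. Per window rather than per gene, CACGTG was in 9 of 40 windows of the members and in 7.26% of all windows. A match is a run of letters and was not shown here to be a bound site.

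ATP6V1B1 was lowest early in the course and highest from 36 h on. Its probe (ILMN_138896) was detected on all 16 arrays. From 0 to 21 h its log2 signal was 9.99, 10.28, 9.86, 9.18, 9.56, 9.79, 10.53 and 10.45 at successive time points, with the lowest value at 9 h, on a dim array. From 24 to 33 h it was 10.36, 10.94, 11.18 and 11.12, and from 36 to 45 h it was 12.53, 12.76, 12.96 and 12.72. The values from 36 to 45 h lay above those of every earlier array, and the signal at 45 h was 6.65-fold that at 0 h.

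The mean of 36 to 45 h was 1.84 above that of 24 to 33 h on the log2 scale (SE 0.14), or 3.59-fold, which ranked 1 of 12321 probes. ATP6V1B1 was chosen for its late rise in these data, so its ranks here are a description. Most of the late difference came between 33 and 36 h, where the log2 signal rose by 1.40 (2.64-fold, rank 2 of 12321). Over all probes the root mean square of that step was 0.21. The next largest step among the members was 0.44, for TPP1, and the most negative was -0.42, for CD68, while 21 of the 33 other members were higher at 36 h than at 33 h. Within the arrays from 0 to 21 h a straight line for ATP6V1B1 changed by 0.39 (SE 0.42) over the 21 h, and from 24 to 45 h by 2.73 (SE 0.28).

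**Figure D1:**
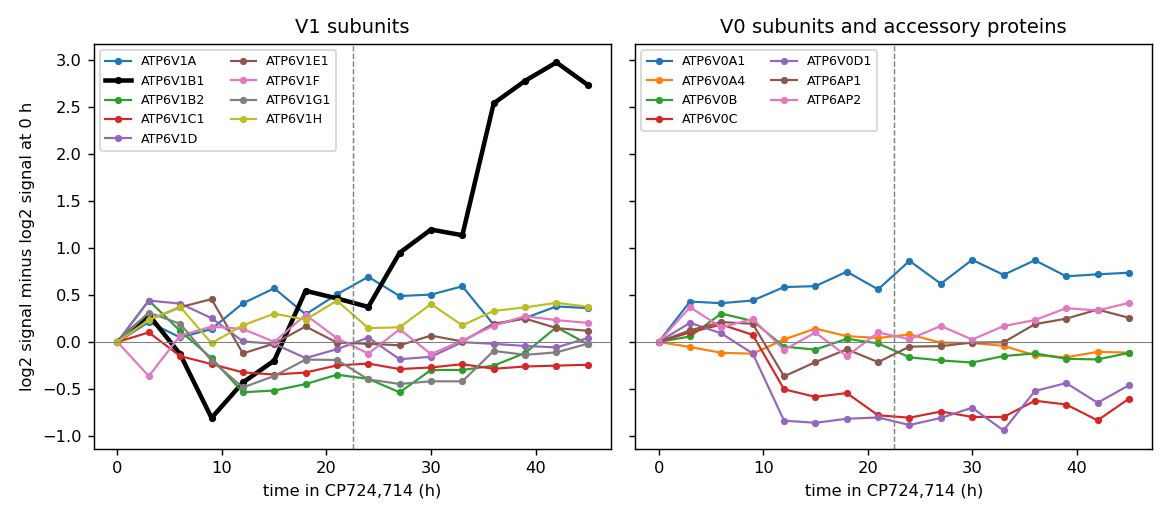
Log2 signal minus the log2 signal at 0 h (vertical axis) against hours in CP724,714 (horizontal axis), 1 array per time point, for the V1 subunits (left) and the V0 subunits with the accessory proteins (right); the dashed line separates the arrays from 0 to 21 h from those from 24 to 45 h. ATP6V1B1, in black, reaches 2.97 at 42 h, while no other line goes beyond 0.94 in either direction.

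Markers of acid-secreting cells were mostly at background. Of 6 genes known from intercalated cells or ionocytes (FOXI1, ATP6V1G3, ATP6V0D2, SLC4A1, SLC26A4 and ASCL3), 0 were detected on all arrays and 5 were detected on fewer than 3. FOXI1, the transcription factor that defines these cells, was detected on 1 array and ATP6V1G3 on 0. ATP6V0D2 was detected on 13 arrays, but was dim, at 7.95 to 8.05. The summed signal of the 6 genes was 1453 to 1468 from 24 to 33 h and 1462 to 1468 from 36 to 45 h. Probes at background sit at the floor of the scale, so this sum cannot show whether genes below detection changed.

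ATP6V1B2, the B subunit made in most cells, had a different course. Its log2 signal was 12.30, 12.74, 12.42, 12.13, 11.76, 11.78, 11.85 and 11.95 from 0 to 21 h, and 11.91, 11.76, 12.00, 12.00, 12.05, 12.18, 12.46 and 12.28 from 24 to 45 h. It was lowest in the middle of the course and back near its 0 h value at the end. The values from 36 to 45 h did not overlap those from 24 to 33 h, and the difference of the means, 0.32 (SE 0.09, 1.25-fold), passed the threshold (adjusted p = 0.00756, limma).

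ATP6V1C2 and ATP6V0A4, the other subunits known from few tissues, were at or near background. ATP6V1C2 stayed between 7.86 and 7.91, not detected on any array. ATP6V0A4, the partner of ATP6V1B1 in the kidney, was close to the floor of the arrays and was detected on 14 of them. Its log2 signal was 8.10, 8.05, 7.98, 7.98, 8.13, 8.24, 8.16 and 8.14 from 0 to 21 h and 8.18, 8.09, 8.09, 8.06, 7.96, 7.94, 7.995 and 7.99 from 24 to 45 h. It was lower at 36 to 45 h than at 24 to 33 h, by a log2 difference of -0.14 (SE 0.02, adjusted p = 0.000196, limma), with no overlap. Of its other probes, ILMN_137874 and ILMN_138890, neither was detected on any array.

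Across the 33 other members, the late difference was tested in the same way for every probe, as the mean of the 4 arrays from 36 to 45 h minus the mean of the 4 from 24 to 33 h in limma, with p-values adjusted over all 12321 probes. The arrays of a set are successive time points and not replicates, so drift within a set enters the spread, and p-values measure only the scatter between these arrays. There were 13 members higher (39.4%) and 4 lower (12.1%), where 16.0% of all probes were higher and 15.9% lower. With the arrays scaled to the same median instead of quantile normalization, 3 were higher (LAMP2, NEU1 and NPC2) and 2 lower (ATP6V0A4 and GLA). The median late difference was 0.12 over the 33 members, with a range from -0.40 to 0.52, and 0.0025 over all probes. It was 0.15 over the 15 pump and accessory genes and 0.10 over the 18 lysosomal genes. ATP6V1B1, chosen for its late rise, lay outside the range of both. Summed signals of markers of other cell types moved between the same sets. That of the 7 macrophage markers was 2310 to 2408 at 24 to 33 h and 2929 to 3100 at 36 to 45 h. Of its 5 fitted genes only CSF1R was higher (by 0.80) and 0 were lower, with a median late difference of 0.05. The sum of the 5 fibroblast markers, of which 1 was detected on all arrays, was 1251 to 1264 and 1271 to 1307. DCN, higher by 0.14, was the 1 fitted gene among them. The sum of the 8 breast epithelial markers was 89829 to 100917 and then 104360 to 109046, but of its 7 fitted genes 2 were higher (KRT17 by 0.97, and KRT8) and 3 lower (KRT5, KRT18 and TACSTD1), with a median late difference of -0.02. The part of these markers in the counts was not tested.

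**Figure D2:**
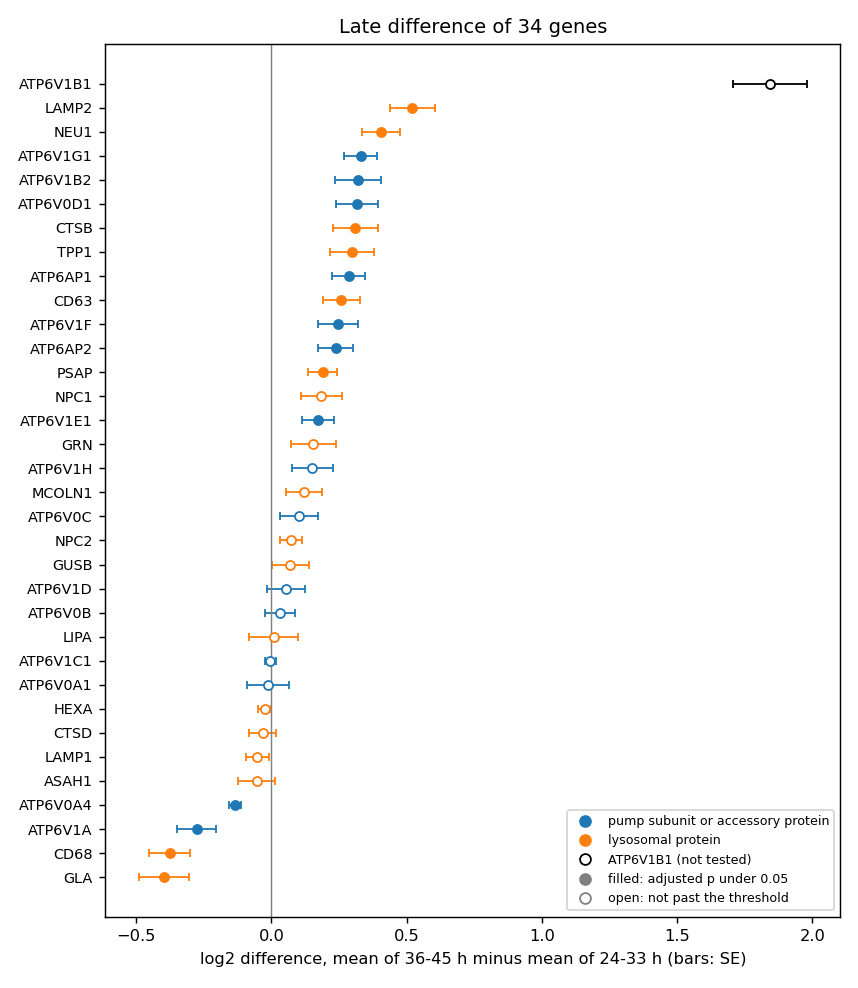
Log2 difference of the mean of 36 to 45 h from the mean of 24 to 33 h (horizontal axis, bars are SE) for the 34 fitted genes, ordered by size; filled points passed the threshold in limma, and ATP6V1B1 was not tested. ATP6V1B1 lies at 1.84 and the next gene, LAMP2, at 0.52, with GLA lowest at -0.40.

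In the V1 sector 4 of 8 tested subunits were higher late (50.0%, against 16.0% of all probes), 1 was lower (12.5%, against 15.9%) and 3 did not pass the threshold. With median scaling none of these 5 passed, with differences of the same sign and adjusted p from 0.0811 to 0.483. ATP6V1G1, part of the peripheral stalk, was at 12.47, 12.79, 12.67, 12.28, 11.99, 12.11, 12.29 and 12.28 from 0 to 21 h and at 12.08, 12.03, 12.06, 12.05, 12.38, 12.34, 12.36 and 12.45 from 24 to 45 h. The last 4 arrays were above the 4 before them without overlap (0.33, SE 0.06, 1.26-fold, adjusted p = 0.000469, limma). ATP6V1F, a subunit of the central rotor, was higher by 0.25 (SE 0.07, adjusted p = 0.0154, limma), and ATP6V1E1, of the peripheral stalk, by 0.17 (SE 0.06, adjusted p = 0.0351). The call was lost in 5 of 24 alternatives for ATP6V1F and in 9 of 24 for ATP6V1E1, leaving out single arrays among them.

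ATP6V1A, the catalytic A subunit that alternates with B in the head, moved the other way. Its signal was 11.41, 11.62, 11.46, 11.55, 11.82, 11.98, 11.70 and 11.92 from 0 to 21 h, then 12.10, 11.90, 11.92, 12.00, 11.59, 11.67, 11.79 and 11.77. It was highest at 24 h, and the last 4 arrays were below the 4 before them without overlap (log2 difference -0.28, SE 0.07, adjusted p = 0.00737, limma). ATP6V1C1, ATP6V1D and ATP6V1H did not pass the threshold, with late differences of -0.004, 0.05 and 0.15. The probe of ATP6V1C1 was dim, detected on 13 arrays.

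The V0 subunits differed in direction among themselves. All 5 varied with time in a spline fit with 4 degrees of freedom, where 18 of the 33 members passed (54.5%) and 41.9% of all probes did. ATP6V0A1, the a subunit of most tissues, was lowest on the untreated array. Its log2 signal was 10.05, 10.48, 10.47, 10.49, 10.64, 10.65, 10.80 and 10.61 from 0 to 21 h and 10.92, 10.67, 10.93, 10.77, 10.92, 10.75, 10.77 and 10.79 from 24 to 45 h. The straight line rose by 0.53 over 45 h (SE 0.14, adjusted p = 0.00965, limma), but neither the line from 0 to 21 h (0.52, SE 0.21, adjusted p = 0.127) nor that from 24 to 45 h (-0.063, SE 0.13, adjusted p = 0.762) passed the threshold. The call over 45 h was also lost with array weights and with the array sets as a block.

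ATP6V0C, which forms most of the proton-carrying ring, fell. It was at 10.53, 10.64, 10.72, 10.61, 10.03, 9.95, 9.99 and 9.75 from 0 to 21 h and at 9.73, 9.79, 9.74, 9.74, 9.91, 9.87, 9.70 and 9.93 from 24 to 45 h. The drop came between 9 and 12 h, and no later array returned to the level of the first 4. The line over 45 h had a change of -0.90 (SE 0.19, adjusted p = 0.00197, limma). ATP6V0B, the other ring subunit in the group, was at 13.00, 13.06, 13.30, 13.22, 12.95, 12.92, 13.03 and 12.99 and then at 12.84, 12.80, 12.78, 12.85, 12.88, 12.82, 12.81 and 12.88. Its fall was smaller (-0.34, SE 0.10, adjusted p = 0.0185, limma), and all arrays from 24 h on lay below all arrays before, a split that coincides with that of the array sets. With these sets as a block neither ATP6V0B nor ATP6V0C passed the threshold, nor did they with median scaling, and within 24 to 45 h their lines were 0.044 and 0.13.

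ATP6V0D1, which couples the ring to the rotor, dropped at the same time as ATP6V0C and then partly recovered. Its values were 11.59, 11.80, 11.68, 11.47, 10.75, 10.73, 10.78 and 10.79 from 0 to 21 h and 10.71, 10.78, 10.89, 10.65, 11.07, 11.15, 10.94 and 11.13 from 24 to 45 h. The last 4 arrays were above the 4 before them without overlap (0.32, SE 0.08, adjusted p = 0.00435, limma) but below the first 4. Both accessory proteins were higher late, where 16.0% of all probes were. ATP6AP1, which joins the assembling V0 sector, was higher by 0.29 (SE 0.06, adjusted p = 0.00148, limma). ATP6AP2, also known as the prorenin receptor, was higher by 0.24 (SE 0.07, adjusted p = 0.00988). With median scaling the late calls of ATP6V0D1, ATP6AP1 and ATP6AP2 were lost (adjusted p = 0.104, 0.184 and 0.276, limma).

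**Figure D3:**
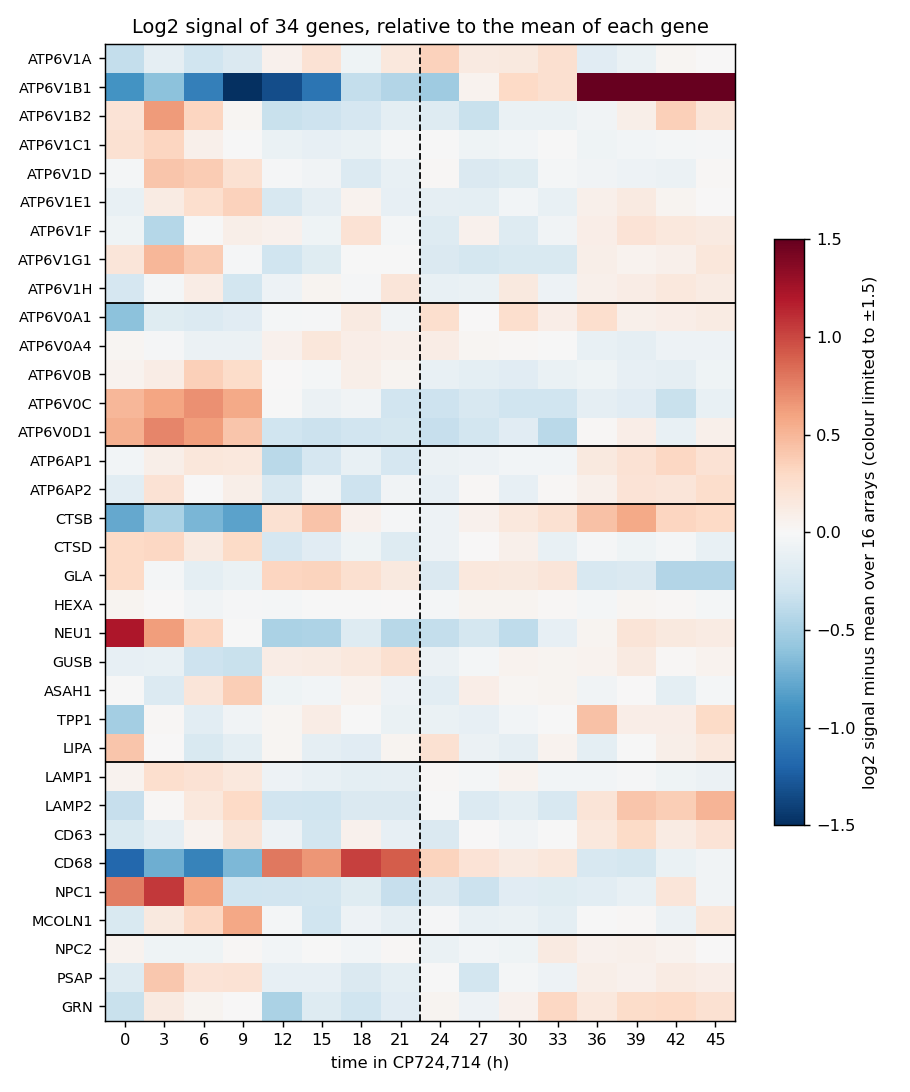
Log2 signal of each fitted gene minus its own mean over the 16 arrays (colour, red above and blue below, limited to 1.5 either way), by hours in CP724,714 (columns); black lines separate V1, V0, accessory, hydrolase, membrane and luminal genes, and the dashed line separates 21 h from 24 h. ATP6V1B1 is at the limit of the colour scale from 36 to 45 h, where no other gene is.

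Over the whole 45 h few members had a linear trend: 4 rose (ATP6V0A1, CTSB, GRN and TPP1; 12.1%, against 12.9% of all probes) and 2 fell (ATP6V0B and ATP6V0C; 6.06%, against 11.5%), shares no larger than over all probes. With the 2 array sets as a block, 1 rose and 0 fell. The straight line for ATP6V1B1, chosen for its late rise in these data, changed by 3.46 (SE 0.41) over 45 h. It ranked 1 of 12321, a description only, while the other members ranged from -0.90 to 1.10.

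Among the lysosomal genes the median late difference was 0.01 over the 9 fitted hydrolases, 0.15 over the 6 membrane proteins and 0.16 over the 3 luminal proteins. CTSB, the cysteine protease cathepsin B, was at 9.16, 9.45, 9.24, 9.12, 10.16, 10.35, 9.99 and 9.91 from 0 to 21 h and at 9.85, 9.99, 10.09, 10.15, 10.36, 10.50, 10.24 and 10.22 from 24 to 45 h. It stepped up between 9 and 12 h and stayed above the first 4 arrays, and the line rose by 1.10 over 45 h (SE 0.22, adjusted p = 0.00128, limma). It was also higher late, by 0.31 (SE 0.08, adjusted p = 0.00861).

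TPP1, a protease that takes tripeptides from the ends of proteins, was lowest at 0 h. It was at 9.35, 9.88, 9.71, 9.82, 9.90, 9.98, 9.86 and 9.77 from 0 to 21 h and at 9.77, 9.74, 9.82, 9.86, 10.30, 9.97, 9.97 and 10.15 from 24 to 45 h. Its highest array was 36 h, and both its line over 45 h (0.42, SE 0.15, adjusted p = 0.0434, limma) and its late difference (0.30, SE 0.08, adjusted p = 0.00897) passed the threshold. The call of the line held in 13 of 27 alternatives and was lost with the array sets as a block, with array weights and without the 0, 6, 21, 36, 39, 42 or 45 h array.

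NEU1, the sialidase that removes sialic acid from glycoproteins and glycolipids, fell early and partly recovered. Its values were 10.66, 10.07, 9.77, 9.44, 8.98, 8.99, 9.26 and 9.04 from 0 to 21 h, and 9.09, 9.19, 9.07, 9.33, 9.49, 9.65, 9.60 and 9.57 from 24 to 45 h. At 12 h the signal at 0 h was 3.21-fold higher than that of the treated culture. The last 4 arrays lay above the 4 before them (0.41, SE 0.07, 1.32-fold, adjusted p = 0.000341, limma) but below 0 h.

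GLA, alpha-galactosidase A, was the hydrolase that was lower late. It was at 11.05, 10.73, 10.60, 10.65, 11.08, 11.08, 10.99 and 10.90 from 0 to 21 h and at 10.54, 10.90, 10.89, 10.93, 10.51, 10.54, 10.32 and 10.31 from 24 to 45 h. The late difference was -0.40 (SE 0.09, adjusted p = 0.0032, limma), although the 24 h array was as low as that of 39 h, so the sets overlapped. CTSD, the aspartic protease cathepsin D, and HEXA, GUSB, ASAH1 and LIPA, which break down gangliosides, glucuronides, ceramide and lipid esters, had late differences between -0.05 and 0.07 that did not pass the threshold. The probe listed under PPGB, the older symbol of CTSA, had a late difference of -0.04 (SE 0.07).

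Of the 6 membrane proteins, 2 were higher late (33.3%, against 16.0% of all probes), 1 was lower (16.7%, against 15.9%) and 3 did not pass the threshold. LAMP2, a main protein of the lysosomal membrane that also serves chaperone-mediated autophagy, was at 9.98, 10.33, 10.47, 10.62, 10.04, 10.02, 10.10 and 10.10 from 0 to 21 h and at 10.31, 10.11, 10.17, 10.08, 10.51, 10.73, 10.68 and 10.83 from 24 to 45 h on probe ILMN_29225. The last 4 arrays were above the 4 before them (0.52, SE 0.08, 1.44-fold, adjusted p = 0.000111, limma). Another probe of LAMP2, ILMN_26730, also detected on all arrays, did not show this (0.03, SE 0.09, adjusted p = 0.836), so the probes disagree. LAMP1, its close relative, had a late difference of -0.05 (SE 0.04) and a narrow range from 14.17 to 14.56. CD63, a tetraspanin of late endosomes, was higher late by 0.26 (SE 0.07, adjusted p = 0.00742, limma).

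CD68, a heavily glycosylated membrane protein best known from macrophages, had a course opposite to NEU1. It was at 8.88, 9.31, 9.05, 9.38, 10.84, 10.71, 11.08 and 10.96 from 0 to 21 h and at 10.39, 10.25, 10.18, 10.23, 9.81, 9.79, 9.95 and 10.00 from 24 to 45 h. It stepped up between 9 and 12 h, was 4.61-fold its 0 h signal on the dim 18 h array, and then came down in both later sets (late difference -0.38, SE 0.08, adjusted p = 0.00106, limma). Of 7 macrophage markers, 3 were detected on all arrays (CSF1R, CD14 and MARCO), while the leukocyte gene PTPRC was detected on 7 at most, LYZ on 4, CD163 on 1 and AIF1 on 0. Their summed signal was 2166 to 2577 from 0 to 9 h, 2087 to 2258 from 12 to 21 h, when CD68 was highest, and 2929 to 3100 from 36 to 45 h, when CSF1R was higher by 0.80 (SE 0.07), and their part in the CD68 signal was not tested. In RNA from a whole culture, a change in the number of cells of a type and a change in RNA per cell cannot be told apart.

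NPC1, which passes cholesterol out of the lysosome, fell between 6 and 9 h, from 9.95 to 9.04, and stayed between 9.00 and 9.52 afterwards. Its soluble partner NPC2 stayed within 15.55 and 15.78 on all arrays. MCOLN1, a calcium channel of the lysosome, was highest on the dim 9 h array, at 9.57 against 8.75 at 0 h. It was not time-dependent in the spline fit (adjusted p = 0.312, limma). PSAP, the precursor of the saposins that help lipid hydrolases, was higher late by 0.19 (SE 0.06, adjusted p = 0.0138, limma).

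GRN, the precursor of the granulins, was at 10.24, 10.72, 10.62, 10.58, 10.10, 10.38, 10.28 and 10.41 from 0 to 21 h and at 10.62, 10.50, 10.65, 10.88, 10.74, 10.85, 10.88 and 10.81 from 24 to 45 h on probe ILMN_7538. Its line rose by 0.49 (SE 0.16, adjusted p = 0.0337, limma). The call held in 16 of 27 alternatives and was lost with the array sets as a block and without the 0, 33, 36, 39, 42 or 45 h array. The line of its other probe, ILMN_18655, was 0.31 (SE 0.16, adjusted p = 0.194), and that probe was higher late by 0.24 (SE 0.09, adjusted p = 0.0472), where the first was not (0.16, SE 0.08, adjusted p = 0.17).

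**Figure D4:**
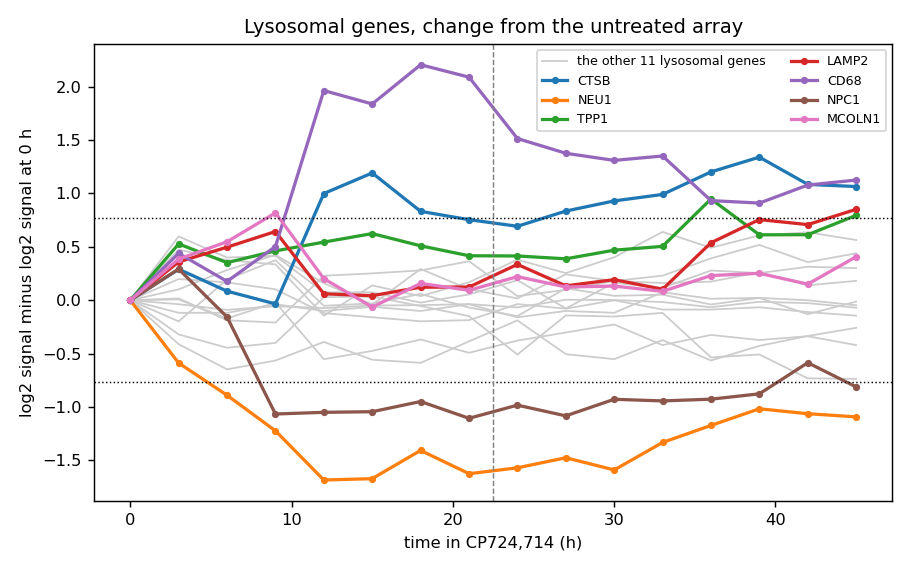
Log2 signal minus the log2 signal at 0 h (vertical axis) against hours in CP724,714 (horizontal axis) for the 18 fitted lysosomal genes, in colour the 7 that reached 1.7-fold (dotted lines) at any time point. CD68 and CTSB step up and NEU1 and NPC1 are low from 9 to 12 h on, and CD68 returns from 2.20 at 18 h toward 1 while NEU1 stays below -1.

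At the fold used by the study as a first filter, 1.7-fold at any time point, here from 0 h, 10 of the 33 members changed (30.3%), against 19.5% of all probes. The study then called genes by a minimum 2-fold ratio of MCF10HER2 to MCF10A, relative to that at 0 h, which was not computed here. The 1.7-fold criterion rests on the lone 0 h array and has no error term. The count was 18 with median scaling, 6 with no background correction, 6 against the mean of 0 and 3 h, 6 at 2 consecutive time points and 4 at 2-fold. The 10 were 7 of the 18 lysosomal genes (CD68, CTSB, LAMP2, MCOLN1, NEU1, NPC1 and TPP1) and 3 of the 15 pump genes, all of V0 (ATP6V0A1, ATP6V0C and ATP6V0D1). The largest change of MCOLN1, 1.76-fold, was on the dim 9 h array, and the count was 9 without that array. In the V1 sector 0 of 8 reached it, and the largest change there was in ATP6V1A, 1.62-fold at 24 h, whereas ATP6V1B1 reached 7.86-fold at 42 h.

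The slopes of several members differed between the early and the late arrays. From 0 to 21 h a straight line fell in 6 members (18.2%, against 5.49% of all probes), which were NEU1, NPC1, ATP6V0D1, ATP6V0C, CTSD and ATP6V1C1, and rose in 1, CD68 (3.03%, against 5.79%). The number past the threshold depended on single arrays, being 0 without the dim 18 h array, 1 without the 3 h or the 15 h array, and 9 without the 0 h array, and it was 1 with median scaling. The direction was kept under every alternative run, with changes over 21 h of -1.79 to -1.09 for NEU1, -1.60 to -0.94 for NPC1, -1.39 to -0.80 for ATP6V0D1 and -1.19 to -0.48 for ATP6V0C. The slope from 24 to 45 h was above that from 0 to 21 h in 10 members (30.3%, against 12.7% of all probes) and below it in 3 (9.09%, against 12.1%), a comparison added after the data were seen. With median scaling 3 were above, and without the 0 h array 16 were. Those above were 6 pump genes (ATP6V0D1, ATP6V1B2, ATP6V0C, ATP6V1G1, ATP6AP1 and ATP6V1C1) and 4 lysosomal genes (NEU1, NPC1, LAMP2 and CTSD), and those below were ATP6V0A4, ATP6V1A and CD68. Only in NEU1, ATP6V0D1 and CD68 did both lines pass the threshold with opposite signs. The lines from 24 to 45 h of NPC1 (0.32), ATP6V0C (0.13), ATP6V1C1 (0.006) and CTSD (-0.07) did not pass.

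**Figure D5:**
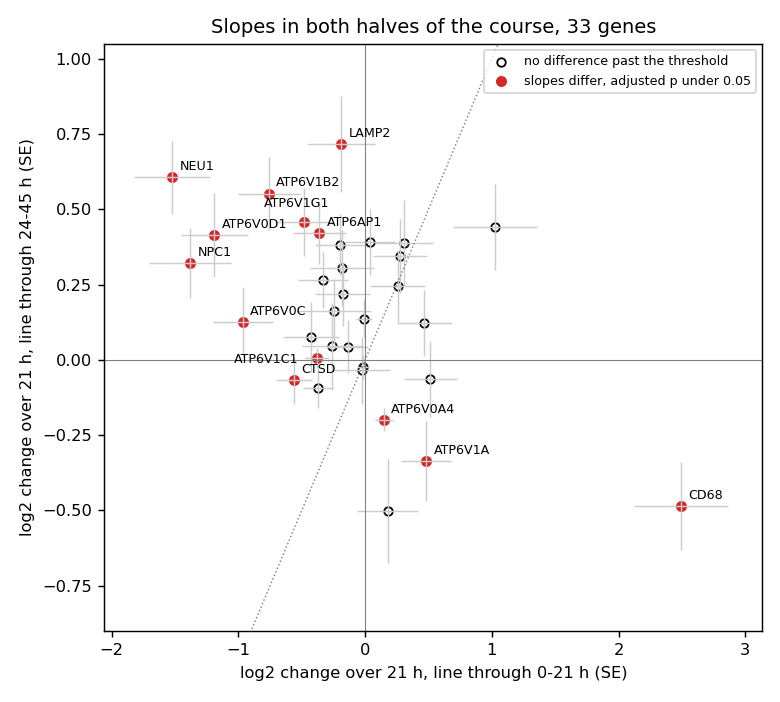
Log2 change over 21 h of a line through the arrays from 0 to 21 h (horizontal axis) and from 24 to 45 h (vertical axis, drawn at a larger scale) with SE, for the 33 members other than ATP6V1B1; red points differ between the lines in limma, and the dotted line marks equal change. NEU1 (-1.52 and 0.61) and CD68 (2.49 and -0.49) lie farthest from it.

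The promoter matches were set beside the late difference as a description. Of the 8 fitted members with CACGTG, 4 were higher late (ATP6V1G1, ATP6V0D1, NEU1 and CD63) and 0 lower, where 16.0% of all probes were higher and 15.9% lower, with a median difference of 0.19. With median scaling NEU1 alone of these 4 passed. Of the 16 without it, 5 were higher and 3 lower, with a median of 0.09. With median scaling NPC2 alone of these 16 was higher, and ATP6V0A4 and GLA were lower. CD63 has several listed starts, and most of their windows had no match. LAMP1, with the most matches, was among those that did not pass the threshold.

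Genes of the pathway outside the group, from lists of the remaining pump subunits, lysosomal proteins and their control genes, were counted in the same way. These counts were made with the main settings only, without the alternatives run for the members. The lists were chosen with earlier results of these data known, and the genes named from them after their values were seen. Among the members, median scaling took the number higher late from 13 to 3. With the array sets as a block the number rising over 45 h went from 4 to 1. Of 7 further V-ATPase subunits fitted, 1 was higher late (14.3%, against 16.0% of all probes; ATP6V0E, the small e subunit of V0, by 0.36, SE 0.06) and 0 lower. Of 42 further lysosomal genes, 14 were higher late (33.3%, against 16.0% of all probes) and 7 lower (16.7%, against 15.9%). The cysteine protease CTSF was higher by 0.85 (SE 0.09, adjusted p = 1.75e-06, limma), and CTSC, which activates serine proteases, was lower (-0.48, SE 0.05, adjusted p = 2.91e-06). Over 45 h, 11 of these genes rose (26.2%, against 12.9% of all probes) and 3 fell (7.14%, against 11.5%), among the risers SCARB2, the receptor that brings glucocerebrosidase to the lysosome (0.61, SE 0.11, adjusted p = 0.000379, limma), and SUMF1, which activates sulfatases (0.79, SE 0.13, adjusted p = 0.000305).

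Of 16 genes of lysosomal sorting and gene control, 8 were higher late (50.0%, against 16.0% of all probes) and 2 lower (12.5%, against 15.9%; GNPTAB and M6PR). From 0 to 21 h a straight line fell in 6 of the 16 (37.5%, against 5.49% of all probes) and rose in 1 (6.25%, against 5.79%). Of the genes higher late, FLCN, IGF2R, MAP1LC3B, SQSTM1 and WIPI1 were among those that fell. Their means at 36 to 45 h stayed below their means at 0 to 9 h, as for WIPI1 at 8.88 and 9.63. GABARAPL1, of the autophagosome membrane, was higher by 0.96 (SE 0.10, adjusted p = 2.79e-06, limma). SQSTM1, an autophagy receptor, fell over the 45 h (-2.23, SE 0.72, adjusted p = 0.0305, limma) and was higher late by 0.54 (SE 0.09, adjusted p = 0.00022). The probe of TFEB was detected on 0 arrays. MITF, of the same family, was dim, between 7.99 and 8.19, and higher late by 0.12 (SE 0.02, adjusted p = 0.000103). Its other probes, ILMN_1803 and ILMN_564, were detected on 0 arrays. TFE3, also of this family, was dim but detected on 16 arrays. It was called neither higher nor lower late, with means of 8.17 at 24 to 33 h and 8.19 at 36 to 45 h.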

How the data were processed

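Per the labels and the study's methods, biotin-labelled RNA was measured on human Ref-8 v2 beadchips from Illumina. The authors deposited the intensity of 20589 probes on 16 arrays, not normalized between arrays, and beside each intensity a detection p-value against the negative control probes. The software behind the deposited values is not given in the sources used here.

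Intensities were corrected and quantile normalized with neqc in limma 3.58.1 (R 4.3.3; offset 16, which shrinks fold changes of dim probes) and taken to log2. Probes were fitted if 3 or more arrays had a detection p under 0.05 (12321 probes, 11565 symbols; 40.2% were left out). With lmFit and eBayes (mean-variance trend), a spline of time with 4 degrees of freedom, straight lines over all arrays, over 0 to 21 h and over 24 to 45 h, and the late difference were tested two-sided, with Benjamini-Hochberg adjustment over all fitted probes at 0.05. Levels of different probes were not compared. The number of arrays limits the precision. The code was tested on simulated data.

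Members and lists were chosen with earlier results of these data known. Values on every array are given for ATP6V1B1, ATP6V1B2, ATP6V1C2 and ATP6V0A4, and for up to 5 members up and 5 down with the largest change past the threshold of the line over 45 h or of the late difference. Other genes named come from the lists, chosen after their values were seen. Alternatives, run for the members only, covered background correction, scaling, the detection filter, probes of a gene, array weights, spline degrees of freedom, array sets, fold thresholds and leaving out each array.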

Additional observations from a re-analysis of the deposited data

Results flagged for a closer look

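For 13 members the slope of log2 signal differed between the arrays from 24 to 45 h and those from 0 to 21 h, by a limma test of the difference itself, given here as log2 over 21 h, later minus earlier. It was positive for NEU1 (2.13), NPC1 (1.703), ATP6V0D1 (1.61), ATP6V1B2 (1.31), ATP6V0C (1.09), ATP6V1G1 (0.94), LAMP2 (0.91), ATP6AP1 (0.78), CTSD (0.50) and ATP6V1C1 (0.39). It was negative for ATP6V0A4 (-0.35), ATP6V1A (-0.82) and CD68 (-2.98). Over all probes 12.7% had a later slope above and 12.1% below the earlier one. Without the dim 9 h and 18 h arrays all 13 passed again, with the same sign. With median scaling 3 positive differences passed (NEU1, NPC1 and ATP6V1C1), and the call for LAMP2 was lost in 16 of 24 alternatives. Background signal also differs between these sets of arrays, and its part in the result was not tested.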

How the results depend on the processing

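No paired analysis was possible because the time points have 1 array each. ATP6V1B1 kept its direction in the line over 45 h and in the late difference under every alternative run, with values of 0.39 (0 to 21 h alone) to 4.16 for the line and 1.67 to 1.94 for the late difference; a line over 24 to 45 h in its place gave 2.73. With median scaling, 11 members were time-dependent, 7 rose and 0 fell over 45 h, 3 were higher and 2 lower late, 18 passed 1.7-fold, 1 fell from 0 to 21 h and 3 had a later slope above the earlier one. Rising members numbered 2 with no detection filter, 1 with the array sets as a block, 1 within 0 to 21 h and 10 within 24 to 45 h. Falling members numbered 4 with array weights, 0 with the block and 6 within 0 to 21 h. Without the dim 9 h and 18 h arrays, an alternative added after seeing the data, 0 fell from 0 to 21 h. The 1.7-fold count was 6 with no background correction, 6 against the mean of 0 and 3 h, 6 at 2 consecutive time points and 4 at 2-fold. Leaving out each array in turn gave 12 (without 30 h) to 20 time-dependent members, 2 to 6 rising (2 without 0, 36, 39, 42 or 45 h, 6 without 9 h), 2 to 4 falling (4 without 12 h), 11 to 14 higher late, 4 lower late, 9 to 10 past 1.7-fold, 1 rising and 0 to 9 falling from 0 to 21 h, and 8 to 16 with a later slope above and 3 to 4 below. The line reversed in 4 cases, to -0.18 for GRN within 0 to 21 h and, within 24 to 45 h, to -0.063 for ATP6V0A1, 0.044 for ATP6V0B and 0.13 for ATP6V0C. The causes were not tested. Dim probes near background (ATP6V1C1, ATP6V0A4, HEXA) limit the folds that could be seen.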
